A study of Mus musculus with 42 samples.

Results

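The genes described here encode components of the cardiac jelly and its neighbouring extracellular matrix. They are Has2, Vcan, Hapln1, Adamts1, Cd44, Fn1, Tnc, Postn, Fbln2 and Lum, which are 10 of the 56953 genes in the count table. They were found by matching the Ensembl identifiers of the table to GENCODE symbols, and each symbol matched 1 row. Bulk RNA sequencing was done on paired heart fields, 1 from each side, of 21 mouse embryos at stage E8.5i, which gave 42 libraries. The groups were 5 wild types (Ccdc40+/+), 11 homozygous mutants (Ccdc40lnks/lnks) with rightward looping of the heart tube and 5 homozygous mutants with inverted looping. The wild types were 4 males and 1 female, the mutants with rightward looping 6 males and 5 females, and the mutants with inverted looping 3 males and 2 females. Ccdc40 encodes a component of motile cilia, and the lnks allele is a point mutation that abolishes the flow at the node. Mutants came from crosses of heterozygous carriers. The heart tube, head, back and trunk below the second somite had been cut away, so the libraries held mainly the dorsal pericardial wall and not the jelly-filled tube itself. The laterality classes into which the study divides the mutants with rightward looping were not in the sample labels and were not used here. The study places 5 of these 11 mutants in situs solitus and 6 in heterotaxy, so values of this group mix both classes.

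The cardiac jelly is the gelatinous matrix between the myocardium and the endocardium of the early heart tube, and hyaluronan is its main polysaccharide. Hyaluronan is spun out at the cell surface by a hyaluronan synthase, is bound by large proteoglycans that link proteins hold in place, and is sensed by cells through CD44. Fibronectin and matricellular proteins such as tenascin C and periostin accompany it in the mesoderm around the heart, where they affect cell adhesion and migration.

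Library totals ranged from 36073684 to 62970327 counts. Ccdc40 itself was at 15.2 to 26.5 CPM (counts scaled to the normalised library size) in the wild types, at 8.83 to 14.6 CPM in mutants with rightward looping and at 9.99 to 14.8 CPM in mutants with inverted looping, so the genotype labels did not overlap. Markers of the second heart field were detected in every library, with a sum of 156 to 412 CPM over 5 markers. Heart muscle markers were also present although the tube had been removed, and their sum over 6 markers varied from 105 to 3087 CPM between libraries. In bulk samples of this kind, a lower number of cells of a type and less RNA per cell cannot be told apart.

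Every matrix gene was expressed in every library. Levels are given per kilobase of annotated exon with all isoforms merged, which allows only a rough comparison between genes. Fn1 was the highest with 70.1 ± 11.2 CPM per kb (SD, n = 42 libraries). Hapln1 followed with 40.7 ± 3.62, Adamts1 with 23.1 ± 4.51, Tnc with 22.8 ± 7.50 and Vcan with 18.0 ± 2.17 CPM per kb. The lower tier held Lum with 6.65 ± 2.90, Cd44 with 3.52 ± 0.893, Postn with 3.01 ± 2.44, Fbln2 with 2.31 ± 0.547 and Has2 with 2.30 ± 0.587 CPM per kb. Only Hapln1 and Adamts1 were neighbours in this order whose ranges over libraries did not overlap. The gene for the synthase was thus at the bottom of the order, at nearly the same level as Fbln2. Hapln1 and Vcan, whose proteins bind hyaluronan, lay in the upper tier.

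**Figure D1:**
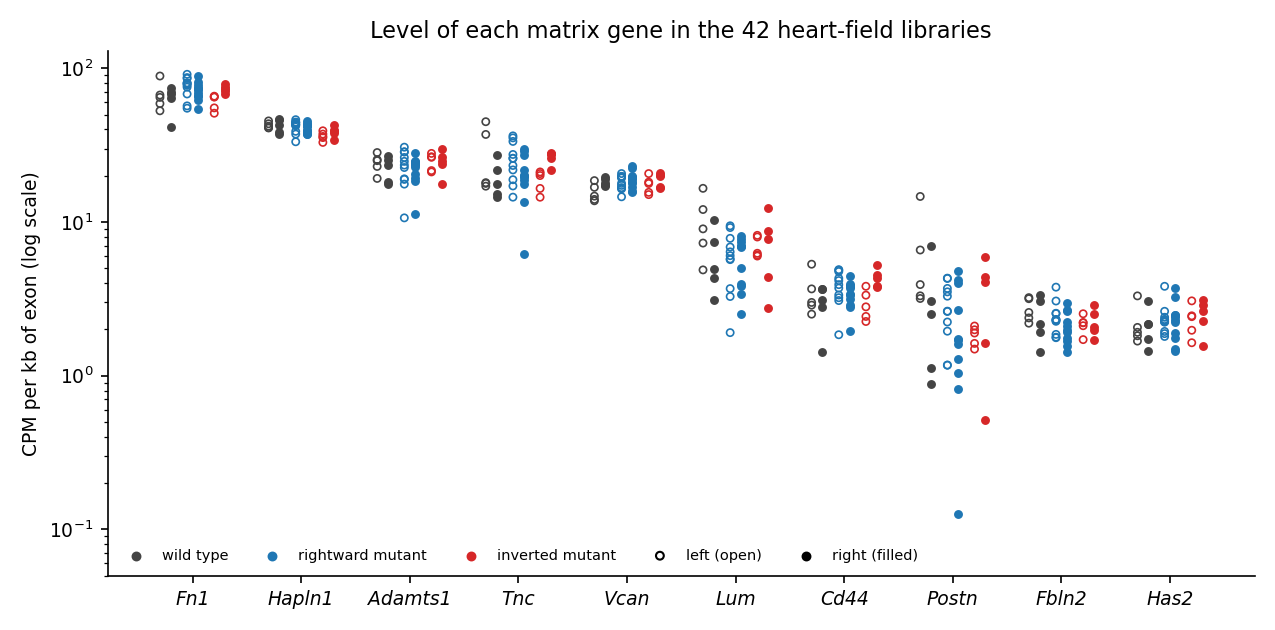
Level of each matrix gene in CPM per kb of exon (log axis), 1 point for each of the 42 libraries, open for left and filled for right heart fields, coloured by group of embryos. Fn1 had the highest mean at 70.1 CPM per kb, and Postn spread over the widest range, from the lowest to the highest library.

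The genes differed in how constant they were. Between the lowest and the highest library, the level of Hapln1 varied by a factor of 1.42, that of Vcan by 1.67 and that of Fn1 by 2.20. This factor was 2.64 for Has2, 2.66 for Fbln2, 2.88 for Adamts1 and 3.74 for Cd44. It reached 7.30 for Tnc, 8.68 for Lum and 117 for Postn, whose levels ran from 1.10 to 128 CPM. The ratio of right to left within embryos gave a similar order, with an SD of the log2 ratio over 21 embryos of 0.15 for Hapln1, 0.17 for Adamts1, 0.21 for Vcan, 0.31 for both Has2 and Fn1, 0.39 for Fbln2, 0.48 for Cd44, 0.60 for Tnc, 0.91 for Lum and 1.32 for Postn. By this SD, Hapln1, Adamts1 and Vcan were the steadiest members between sides, Has2 and Fn1 came next, and Tnc, Lum and Postn varied the most. This SD includes differences between groups, and within the inverted group alone that of Tnc was 0.17, the same as that of Vcan.

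Left and right were compared within embryos to ask which genes are asymmetric in each group, with edgeR's quasi-likelihood test, the embryo as a block and Benjamini-Hochberg adjustment over all genes tested. A gene was called at an adjusted p below 0.05, and every log2 difference is right minus left unless said otherwise. In the wild types, 0 of the 10 members were called, where 0% of the 23182 genes tested were. At an unadjusted p below 0.05 there were 3 members, Postn, Vcan and Lum, where 2.76% of all genes were. In mutants with rightward looping, 0 members were called, where 0.0263% of 22795 genes were, and 2 members, Tnc and Cd44, had an unadjusted p below 0.05, where 3.59% of all genes did. In mutants with inverted looping, 1 member was called, Tnc, where 2.04% of 22960 genes were. Cd44, Fn1 and Tnc had an unadjusted p below 0.05 there, where 15.1% of all genes did. The median log2 difference of the members was -0.19 in wild types, -0.07 in mutants with rightward looping and 0.12 in mutants with inverted looping, whereas that of all genes tested lay between -0.005 and 0.002.

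**Figure D2:**
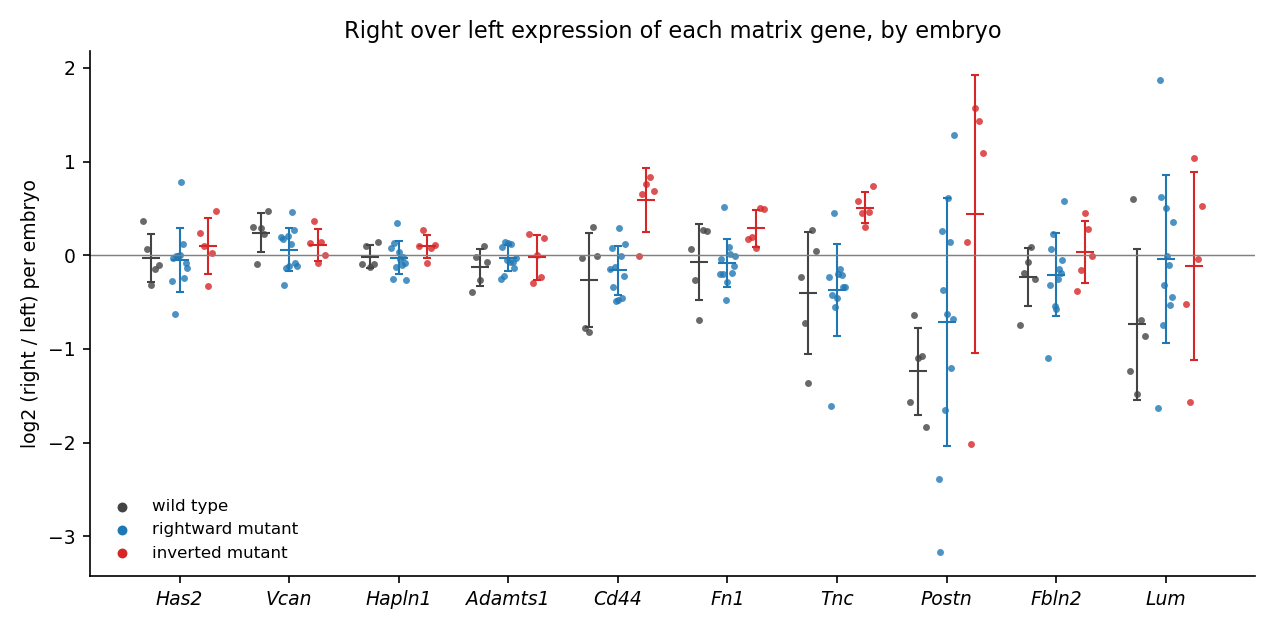
Log2 ratio of right to left expression of each matrix gene, 1 point per embryo, with the mean and SD of each group (5 wild types, 11 rightward and 5 inverted mutants). Tnc and Fn1 lay above 0 in all 5 inverted mutants, and Postn lay below 0 in all 5 wild types.

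Has2 encodes the main hyaluronan synthase of the early heart (chromosome 15, 56528342 to 56557999, minus strand, GRCm39, as for all positions here). In the wild types its levels on the left were 8.37, 10.3, 9.06, 9.54 and 16.5 CPM in embryos 7_1, 8_1, 10_1, 17_7 and 22_4, and on the right 10.8, 10.8, 7.24, 8.64 and 15.3 CPM in the same order. Embryo 22_4 was the highest on both sides, and the sides overlapped. In mutants with rightward looping, the lowest, median and highest levels were 8.97, 11.3 and 19.0 CPM on the left and 7.20, 11.5 and 18.6 CPM on the right. The mutants with inverted looping, in the order 2_7, 4_6, 10_3, 18_2 and 32_2, had 12.1, 12.2, 9.84, 15.3 and 8.16 CPM on the left and 14.3, 13.1, 7.80, 15.5 and 11.4 CPM on the right. The log2 difference was -0.03 ± 0.12 (SE) in wild types, -0.05 ± 0.10 in mutants with rightward looping and 0.11 ± 0.12 in mutants with inverted looping, each smaller than its own SE. Has2 shared 400 exon bases with the antisense gene Has2os, whose mean level of 4.40 CPM was 38.4% of that of Has2. Whether reads were counted by strand is not given in the sources used here, so the effect of that gene on the Has2 count is not known.

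Vcan encodes versican, the large hyaluronan-binding proteoglycan of the cardiac jelly (chromosome 13, 89803431 to 89890814, minus strand). In the wild types 7_1, 8_1, 10_1, 17_7 and 22_4, its levels were 232, 307, 244, 278 and 227 CPM on the left and 285, 288, 298, 325 and 315 CPM on the right. Apart from 8_1, every wild type had more Vcan on the right (4 of 5), and the fitted difference was 0.23 ± 0.08 (unadjusted p = 0.0203, adjusted p = 0.9998, edgeR). It was the only member with a positive log2 difference in the wild types. The mutants had smaller differences, 0.06 ± 0.06 with rightward looping, where 6 of 11 embryos were higher on the right, and 0.12 ± 0.06 with inverted looping, where 4 of 5 were (adjusted p = 0.391, edgeR). With 1 embryo left out, these values ran from 0.02 to 0.10 with rightward and from 0.06 to 0.17 with inverted looping. Levels in mutants with rightward looping had a lowest, median and highest value of 241, 295 and 342 CPM on the left and 257, 315 and 380 CPM on the right. In mutants with inverted looping they ranged from 249 to 341 CPM on the left and from 273 to 343 CPM on the right.

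Hapln1 encodes the link protein that locks versican onto hyaluronan (chromosome 13, 89686581 to 89759950, plus strand), and it lies 43.48 kb from Vcan. It was the steadiest member. In wild types it was at 292 to 324 CPM on the left and 268 to 333 CPM on the right, and in mutants with rightward looping at 237 to 330 CPM and 266 to 325 CPM. In the mutants with inverted looping 2_7, 4_6, 10_3, 18_2 and 32_2, the left had 252, 235, 257, 266 and 279 CPM and the right 270, 283, 243, 280 and 303 CPM. All 5 left levels of the inverted group were below all 5 left levels of the wild types, a pair of groups for which no test was run. The log2 difference between sides was -0.02 ± 0.06, -0.03 ± 0.05 and 0.10 ± 0.05 in the 3 groups in that order.

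Adamts1 encodes a secreted metalloprotease that cleaves versican (chromosome 16, 85590579 to 85600009, minus strand). It ranged from 105 to 155 CPM on the left and from 96.0 to 147 CPM on the right of wild types, and from 116 to 153 CPM and 96.4 to 164 CPM in mutants with inverted looping. Mutants with rightward looping had a wider range, from 58.2 to 168 CPM on the left and 61.8 to 153 CPM on the right. Despite that range, the sides of each of these embryos lay close together, with log2 ratios between -0.26 and 0.14 over the 11. Fitted log2 differences were -0.13 ± 0.08, -0.04 ± 0.04 and -0.01 ± 0.09 in wild types, rightward and inverted mutants. Of the 4 genes Has2, Vcan, Hapln1 and Adamts1, none was called in any group, and no fitted difference of theirs between sides exceeded 0.23 on the log2 scale.

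Tnc encodes tenascin C, a matricellular glycoprotein that modulates adhesion to fibronectin (chromosome 4, 63878014 to 63965443, minus strand). In the mutants with inverted looping 2_7, 4_6, 10_3, 18_2 and 32_2, its levels were 116, 165, 169, 160 and 132 CPM on the left and 173, 225, 208, 219 and 221 CPM on the right. The lowest right level was above the highest left level, so the sides did not overlap. The log2 difference was 0.52 ± 0.06, which passed the test (adjusted p = 0.00887, edgeR), and Tnc ranked 86 among all genes by p in this group. In the wild types 7_1, 8_1, 10_1, 17_7 and 22_4, Tnc had 142, 358, 296, 144 and 136 CPM on the left and 121, 217, 115, 173 and 141 CPM on the right. The left of 8_1 and 10_1 stood above the other libraries, 3 of 5 embryos were higher on the left, and the log2 difference of -0.40 ± 0.22 did not pass (adjusted p = 0.9998, edgeR). In mutants with rightward looping, the lowest, median and highest levels were 116, 207 and 289 CPM on the left and 49.0, 158 and 239 CPM on the right. Tnc was higher on the left in 10 of these 11 embryos, with a log2 difference of -0.37 ± 0.12 (unadjusted p = 0.00997, adjusted p = 0.9999, edgeR).

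The call for Tnc in mutants with inverted looping held without any 1 of the 5 embryos, with log2 differences of 0.45 to 0.56. It was lost when all 42 libraries shared 1 estimate of the spread, where the difference was 0.51 (adjusted p = 0.230, edgeR).

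Cd44 encodes the transmembrane receptor for hyaluronan (chromosome 2, 102641486 to 102732010, minus strand). In the mutants with inverted looping 2_7, 4_6, 10_3, 18_2 and 32_2, its levels were 25.9, 22.6, 15.3, 16.5 and 19.0 CPM on the left and 25.7, 35.6, 26, 29.5 and 30.6 CPM on the right. The right was higher in 4 of 5 embryos, while embryo 2_7 had nearly the same level on both sides. The log2 difference of 0.60 ± 0.12 fell just short of the threshold (unadjusted p = 0.00123, adjusted p = 0.0546, edgeR). Without embryo 2_7 it was 0.75 and passed (adjusted p = 0.00891, edgeR). This was the only 1 of the 5 fits with an embryo left out that passed. Without 18_2 the difference was 0.52, and the adjusted p of these 5 fits reached 0.214 (edgeR). Wild types, in the order 7_1, 8_1, 10_1, 17_7 and 22_4, had 19.5, 36.0, 17.0, 20.3 and 24.9 CPM on the left and 19.0, 20.9, 9.63, 25 and 24.8 CPM on the right. Only 17_7 was higher on the right, and the log2 difference was -0.27 ± 0.18. In mutants with rightward looping, Cd44 had 12.5, 26.5 and 33.2 CPM as the lowest, median and highest level on the left and 13.2, 23.1 and 30.1 CPM on the right, with 8 of 11 embryos higher on the left and a log2 difference of -0.16 ± 0.07 (unadjusted p = 0.0437, adjusted p = 0.9999, edgeR).

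Fn1 encodes fibronectin, the integrin-binding glycoprotein of the mesodermal matrix (chromosome 1, 71624673 to 71692419, minus strand). In mutants with inverted looping 2_7, 4_6, 10_3, 18_2 and 32_2, the left had 1033, 1042, 1028, 874 and 807 CPM and the right 1163, 1189, 1084, 1243 and 1134 CPM. The sides did not overlap, but the log2 difference of 0.30 ± 0.07 did not pass the test (unadjusted p = 0.00244, adjusted p = 0.0775, edgeR). The wild types 7_1, 8_1, 10_1, 17_7 and 22_4 had 1023, 1409, 1060, 837 and 933 CPM on the left and 1071, 1177, 658, 1012 and 1114 CPM on the right. The 2 embryos with the left higher were 8_1 and 10_1, the same pair in which Tnc was highest on the left. The log2 difference was -0.07 ± 0.14 in wild types and -0.09 ± 0.07 in mutants with rightward looping, whose lowest, median and highest levels were 870, 1251 and 1446 CPM on the left and 866, 1147 and 1408 CPM on the right.

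For Cd44 and Fn1 in mutants with inverted looping, the call depended on the test. With DESeq2 the adjusted p was 7.5e-06 for Cd44 and 6.7e-05 for Fn1, and without the filter on low counts edgeR called both as well.

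**Figure D3:**
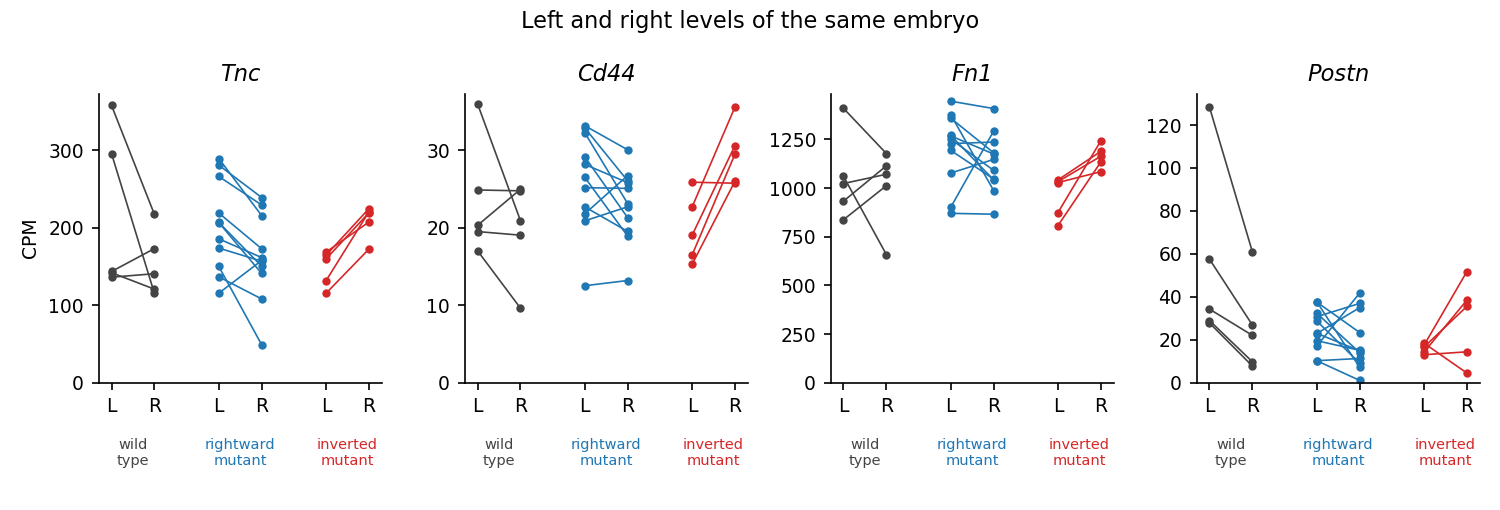
CPM of Tnc, Cd44, Fn1 and Postn on the left (L) and right (R), where each line joins both sides of 1 embryo. In inverted mutants the lines of Tnc and Fn1 rise in 5 of 5 embryos and those of Cd44 and Postn in 4 of 5, whereas those of Postn fall in 5 of 5 wild types.

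Heart muscle markers moved with these genes in the mutants with inverted looping. Of the 6 markers (Tnnt2, Myh6, Myl7, Actn2, Tnni3 and Nppa), 5 were called higher on the right and 1 had a negative log2 difference. In this group, 2.04% of the 22960 genes tested were called in either direction. The summed level of the markers was 729 to 1415 CPM on the left and 1329 to 2680 CPM on the right, higher on the right in 5 of 5 embryos. Of 6 markers of the sinus venosus and cardiopulmonary progenitors, 4 were called higher on the right and 2 had a negative log2 difference. Their sums were 278 to 421 CPM on the left and 358 to 495 CPM on the right. In 5 markers of the second heart field, 1 was called higher on the right and 1 had a negative log2 difference. The sums were 201 to 297 CPM and 294 to 400 CPM. The endothelium had 1 of 6 markers called higher on the right and 1 with a negative log2 difference. Its sums were 294 to 356 CPM and 339 to 394 CPM. Neural tube markers went the other way, with 2 of 5 called lower on the right and sums of 32.4 to 59.6 CPM on the left and 8.62 to 38.3 CPM on the right. Among lists with 0 markers called, paraxial mesoderm was lower on the right in 4 of 5 embryos, with sums of 106 to 177 CPM on the left and 64.7 to 121 CPM on the right. Neural crest was lower on the right in 4 of 5 as well (98.8 to 162 CPM and 90.6 to 123 CPM). Septum transversum and proepicardium (39.0 to 51.2 CPM and 41.1 to 65.7 CPM) and allantois and extraembryonic mesoderm (30.6 to 47.9 CPM and 41.8 to 67.7 CPM) were higher on the right in 5 of 5 embryos. Of the 4 allantois markers, 3 had a median below 1 CPM and only 2 were tested, so this sum rested on few genes. In the septum transversum list, 1 of 5 markers had a negative log2 difference, and in paraxial mesoderm 1 of 5 had a positive one. Foregut endoderm was higher on the right in 3 of 5 embryos and primitive blood in 2 of 5. No marker in these lists was at 0 in all libraries. The part of these markers in the results for Tnc, Cd44 and Fn1 was not tested.

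The same marker sum stood apart in single embryos of the other groups. In the wild type 10_1, the log2 ratio of right to left was -1.72 for the heart muscle sum, -1.36 for Tnc, -0.82 for Cd44 and -0.69 for Fn1. Other marker sums of 10_1 also differed between sides, with log2 ratios of 2.52 for neural tube, 1.23 for paraxial mesoderm and -3.14 for visceral endoderm. Without this embryo, the log2 difference in wild types was -0.16 for Tnc, -0.13 for Cd44 and 0.08 for Fn1. In the mutant with rightward looping 2_2, the log2 ratio was -1.99 for the heart muscle sum and -1.61 for Tnc, but 0.08 for Cd44 and -0.04 for Fn1, and without it the log2 difference of Tnc in that group was -0.25. In 19_4, the mutant with rightward looping whose heart muscle sum was the most right-sided at 1.38, the log2 ratio was -0.20 for Tnc, 0.29 for Cd44 and 0.09 for Fn1. Over the wild types, the heart muscle sum was 963 to 2554 CPM on the left and 523 to 1922 CPM on the right, and over mutants with rightward looping 417 to 2890 CPM and 105 to 3087 CPM.

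Postn encodes periostin, a matricellular protein of mesenchyme and later of valves (chromosome 3, 54268501 to 54298471, plus strand). The study picked Postn as a laterality signature gene from these same libraries, so its pattern here is not independent evidence. In the wild types 7_1, 8_1, 10_1, 17_7 and 22_4, its levels were 29.0, 34.3, 57.5, 128 and 27.8 CPM on the left and 9.77, 22.1, 26.9, 61.0 and 7.77 CPM on the right. All 5 embryos had more Postn on the left, and the log2 difference was -1.24 ± 0.16. It had the second smallest p of all genes in the wild types and was not called by edgeR (unadjusted p = 7.5e-05, adjusted p = 0.793), whereas DESeq2 (adjusted p = 2.1e-15) and edgeR without the filter on low counts (adjusted p = 0.0126) called it.

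In mutants with rightward looping, the lowest, median and highest level of Postn were 10.2, 23.0 and 37.7 CPM on the left and 1.10, 14.9 and 41.7 CPM on the right. The left was higher in 7 of 11 embryos, and the log2 ratio of right to left ran from -3.17 in 2_2 to 1.29 in 32_3. In the mutants with inverted looping 2_7, 4_6, 10_3, 18_2 and 32_2, Postn had 13.0, 18.4, 17.4, 14.2 and 16.6 CPM on the left and 14.4, 4.52, 51.7, 38.5 and 35.5 CPM on the right. The left levels were close to each other, and the right levels were spread from the lowest to the highest of the group, with embryo 4_6 alone lower on the right. The log2 difference was -0.64 ± 0.34 with rightward looping and 0.56 ± 0.48 with inverted looping (adjusted p = 0.655 in the latter, edgeR). The latter was 1.08 without 4_6 and 0.27 without 10_3. Over 16 alternative fits, the value with rightward looping ran from -0.84 to -0.37. The 5 left levels of the inverted group were all below the 5 left levels of the wild types, which was not tested.

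Fbln2 encodes fibulin 2, a glycoprotein that binds versican and fibronectin (chromosome 6, 91189437 to 91249522, plus strand). Its levels in wild types were 15.4 to 22.6 CPM on the left and 9.95 to 23.7 CPM on the right, with 4 of 5 embryos higher on the left. In mutants with rightward looping they were 12.4 to 26.4 CPM and 10.0 to 20.8 CPM, with 8 of 11 higher on the left, and in mutants with inverted looping 12 to 17.8 CPM and 11.9 to 20.3 CPM, with 3 of 5 higher on the left. Between sides, the fitted log2 difference was -0.24 ± 0.13, -0.21 ± 0.12 and 0.05 ± 0.13 in these groups, and none passed the test. Single embryos moved these values, to -0.11 in wild types without 7_1, to -0.12 in mutants with rightward looping without 1_6, and to between -0.06 and 0.15 in mutants with inverted looping.

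Lum encodes lumican, a small leucine-rich proteoglycan that regulates collagen fibrils (chromosome 10, 97400990 to 97408577, plus strand). Among the wild types 7_1, 8_1, 10_1, 17_7 and 22_4, the left had 46.8, 31.3, 77.3, 106 and 57.9 CPM and the right 19.8, 47.3, 27.7, 65.8 and 31.9 CPM. The left was higher in every embryo except 8_1, with a log2 difference of -0.75 ± 0.27 (unadjusted p = 0.0250, adjusted p = 0.9998, edgeR). In mutants with inverted looping 2_7, 4_6, 10_3, 18_2 and 32_2, Lum was at 40.1, 52.5, 38.5, 51.2 and 39.2 CPM on the left and at 28.0, 17.7, 79.4, 49.7 and 56.3 CPM on the right. As with Postn, the left levels were close together and the right levels spread widely, with embryo 4_6 the lowest and 10_3 the highest on the right. For Lum the log2 difference was -0.09 ± 0.33 there and -0.05 ± 0.23 in mutants with rightward looping, where the ratio of single embryos ran from -1.64 to 1.87. Single embryos turned the sign of both values, which ran from -0.38 without 10_3 to 0.27 without 4_6 in the inverted group and from -0.23 without 2_2 to 0.11 without 1_6 in the rightward group.

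Visceral endoderm markers (Afp, Ttr, Apoa1, Apob and Apoa4) stood at the same extremes as Lum and Postn in some embryos. In wild types, the log2 ratio of right to left of their sum was -2.80 in 7_1, 1.93 in 8_1, -3.14 in 10_1, -1.29 in 17_7 and 0.09 in 22_4, so that 8_1 was the highest for the markers and for Lum. In mutants with inverted looping, the ratio of the sum was lowest in 4_6 (-1.34) and highest in 10_3 (4.50). Among mutants with rightward looping it was highest in 32_3 (2.83), where Postn was also the most right-sided, whereas in 2_2 the sum was at -1.47, Postn at -3.17 and Lum at 1.87. The sum was 123 to 653 CPM on the left and 29.9 to 467 CPM on the right of wild types, 16.4 to 543 CPM and 5.90 to 611 CPM in mutants with rightward looping, and 32.6 to 409 CPM and 162 to 854 CPM in mutants with inverted looping. Of the 5 markers, 0 were called in each group by edgeR, and none was at 0 in all libraries. The part of these markers in the values of Lum and Postn was not tested.

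Whether the asymmetry itself differed between groups was tested as the interaction of side and group over all 42 libraries. Both differences below share the mutants with rightward looping. For inverted minus rightward mutants, 0 members were called, where 0.311% of 26335 genes were. At an unadjusted p below 0.05 there were 3 members, Cd44, Tnc and Fn1, where 10.5% of all genes were. Cd44 was the nearest to the threshold, with a difference of log2 ratios of 0.75 ± 0.18 (unadjusted p = 0.000306, adjusted p = 0.0688, edgeR). It was called under 4 of 20 alternatives, whose adjusted p ranged from 0.00231 to 0.488. These were DESeq2 (adjusted p = 0.00231), edgeR without the filter on low counts (adjusted p = 0.0356), and edgeR without the inverted mutant 2_7 (0.90, adjusted p = 0.0292) or without the mutant with rightward looping 19_4 (0.79, adjusted p = 0.0352). The difference was 0.87 ± 0.23 for Tnc (adjusted p = 0.117), 0.37 ± 0.14 for Fn1 (adjusted p = 0.327) and 1.19 ± 0.61 for Postn (adjusted p = 0.507), all by edgeR. Thus Tnc, which was called in the inverted group, was not shown to differ in asymmetry between both mutant groups.

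The difference lay between -0.05 and 0.24 for the other 6 members, Has2, Vcan, Hapln1, Adamts1, Fbln2 and Lum. For rightward mutants minus wild types, 0 members were called, where 0% of the 26335 genes were, and 3.04% of all genes and 0 members had an unadjusted p below 0.05. DESeq2 called 0 members for this difference, where it called 0 of the 26335 genes. For asymmetry in mutants with rightward looping it called 0 members and 31 of 22795 genes. The largest differences were 0.70 ± 0.44 for Lum and 0.59 ± 0.58 for Postn (adjusted p = 0.9998 for both, edgeR), and those of the other 8 members lay between -0.18 and 0.10.

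**Figure D4:**
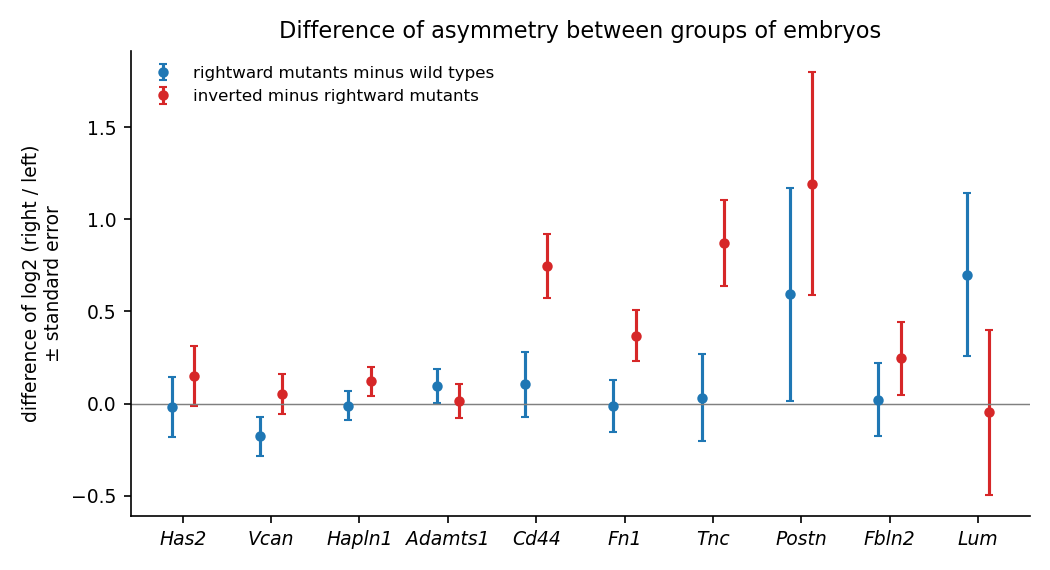
Difference of the log2 ratio of right to left between groups of embryos, with its standard error, for each matrix gene from the fit of all 42 libraries. For inverted minus rightward mutants, Cd44 (0.75 ± 0.18) and Tnc (0.87 ± 0.23) lay farthest above 0 relative to their errors, and no member passed the adjusted threshold by edgeR with the filter on low counts, while DESeq2 called Cd44.

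Levels on 1 side were compared between groups with sex in the model. On the left, inverted against rightward mutants, 0 members were called, where 0.0121% of 24838 genes were, and 3 members, Hapln1, Fn1 and Cd44, had an unadjusted p below 0.05, where 7.89% of all genes did. Hapln1 was lower by 0.21 ± 0.06 on the log2 scale with inverted looping, a log2 difference of -0.21 (unadjusted p = 0.00314, adjusted p = 0.428, edgeR). That difference was -0.32 ± 0.12 for Fn1, -0.36 ± 0.17 for Cd44, -0.38 ± 0.22 for Tnc and -0.62 ± 0.35 for Postn. On the right, 0 members were called, where 0.00805% of 24859 genes were, and 2 members, Cd44 and Tnc, had an unadjusted p below 0.05, where 4.26% of all genes did. The log2 difference on the right was 0.38 ± 0.17 for Cd44, 0.45 ± 0.20 for Tnc, 0.60 ± 0.60 for Postn and 0.04 ± 0.11 for Fn1. For Cd44 and Tnc, the values on the left were thus below 0 and those on the right above 0, while for Fn1 and Hapln1 the larger difference was on the left. Without the inverted mutant 2_7, Tnc was at -0.24 on the left and 0.59 on the right, and without 10_3 Postn was at 0.28 on the right.

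For mutants with rightward looping against wild types, 0 members were called on the left, where 0.0242% of genes were, and 0 on the right, where 0.0121% were. At an unadjusted p below 0.05 there were 3 members on the left, Postn, Lum and Vcan, where 5.02% of all genes were, and 0 on the right, where 3.28% were. DESeq2 called 0 members in these 4 comparisons of levels. Against rightward mutants, it called 84 of 24838 genes for inverted mutants on the left and 16 of 24859 on the right. For rightward mutants against wild types it called 20 and 6 of these genes. On the left, the log2 difference was -1.17 ± 0.34 for Postn (unadjusted p = 0.0025, adjusted p = 0.816, edgeR), -0.61 ± 0.28 for Lum and 0.21 ± 0.09 for Vcan. Without the wild type 17_7, which had the highest left level of both genes, the value was -0.62 for Postn and -0.37 for Lum. The left levels of Postn overlapped, with 27.8 to 128 CPM in wild types and 10.2 to 37.7 CPM in these mutants. On the right, the log2 differences of the 10 members lay between -0.43 for Postn and 0.16.

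The other genes of the matrix gave some context. In 9 lists of hyaluronan, proteoglycan, matricellular, fibronectin and fibulin genes there were 64 genes beside the members. Of these, 59 were tested for asymmetry in mutants with inverted looping, and 3 were called, all higher on the right, where 2.04% of all genes were called. They were Itgb3, an integrin beta subunit that binds fibronectin and vitronectin (1.33 ± 0.15, adjusted p = 0.00644), Ugdh, which makes the glucuronic acid precursor of hyaluronan (0.36 ± 0.06, adjusted p = 0.0211), and Ugp2, which makes the UDP-glucose upstream of it (0.28 ± 0.06, adjusted p = 0.0492, all edgeR). In that group, 2 of 8 hyaluronan synthesis genes were called, with a median log2 difference of 0.20 over the list. Of 8 genes for fibronectin and its receptors, 1 was called, with a median of 0.26, and of 11 matricellular genes tested, only Tnc was called, with a median of 0.17. The 5 hyaluronan receptor genes had a median of 0.04, the 5 breakdown genes 0.18, the 7 ADAMTS genes -0.01, the 8 genes tested for hyalectans and link proteins -0.09, the 10 fibulin and elastic fibre genes 0.10 and the 7 small leucine-rich proteoglycan genes tested -0.09, with 0 called in each. At an unadjusted p below 0.05 there were 21 of the 59 genes in mutants with inverted looping, where 15.1% of all genes were. In the wild types edgeR called 0 of 59, where 0% of all genes were. At an unadjusted p below 0.05 there were 2, where 2.76% of all genes were. In mutants with rightward looping it called 0 of 58, where 0.0263% of all genes were. At an unadjusted p below 0.05 there were 0, where 3.59% of all genes were. For the difference of asymmetry between inverted and rightward mutants 0 of 63 were called, where 0.311% of all genes were. There were 16 at an unadjusted p below 0.05, where 10.5% of all genes were.

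Within single embryos, the direction was mixed among the members. Of the 11 mutants with rightward looping, 23_3 had all 10 members lower on the right, with a median log2 ratio of -0.12, and 22_1 had 9. At the other end of this group, 19_4 and 19_6 had 5 members higher on the right, with medians of 0.04 and 0.002. Of the wild types, 10_1 had 9 lower on the right, with a median of -0.50, and 17_7 had 6 higher on the right. In mutants with inverted looping, 6 to 9 members were higher on the right, and 32_2 had 9, with a median of 0.48.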

How the data were processed

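RNA of the left and right heart field of each embryo was sequenced as paired-end poly-A libraries from 10 ng of total RNA. After removing duplicates, the authors mapped reads with STAR (GRCm39) and assigned them to Ensembl genes by featureCounts (Subread 2.0.6, as also named in the submitters' processing notes). They deposited raw counts per gene, which were whole numbers. The strand setting is not given in the sources used here. Reads of PCR-amplified libraries without molecular identifiers are not independent molecules. Columns were matched to embryos by name, and 0 columns were unmatched. GENCODE vM39 held 56310 of the 56953 identifiers. Fn1, Tnc and Cd44 overlap on the opposite strand with weakly expressed neighbours (less than 1% of their level), and Has2 with Has2os. Whether reads of the shared bases were told apart is not known.

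Groups came from the labels. The members and lists were chosen with earlier results of these data known. Named genes were all members in every comparison, and those of the other matrix genes that passed the test. Counts were normalised by TMM and tested with edgeR 4.0.16 in R 4.3.3 (glmQLFit, glmQLFTest) after filterByExpr with the study's limits (a minimum count of 5, a minimum total of 10, large.n of 50 and min.prop of 0.2), and log2 ratios per embryo used a prior count of 2. Left and right come from the same embryo by the labels, so the embryo was a block, and residuals of both libraries of an embryo had a median correlation of 0.305 over the 2000 most variable genes (range -0.09 to 0.75, 21 embryos). Levels on 1 side carried sex as a covariate. DESeq2 (version 1.42.0 here, with a local dispersion fit and no shrinkage of fold changes) was an alternative, beside a fit of all libraries, no filter, library size alone in place of TMM, no block, no sex covariate, only the 2 groups compared, and each embryo left out. Tests were run on simulated data first. No library was a copy of another (lowest chi-square per gene 7.40 over 861 pairs). Batches are not in the labels and were not modelled. At these depths the lowest count of any member was 50.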

Additional observations from a re-analysis of the deposited data

Results flagged for a closer look

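Among 60 groups of 5 samples (10 genes, levels on both sides and the ratio, in wild types and mutants with inverted looping), 2 held a sample far from the other 4 by Dixon's rule on the gap to the nearest sample, which chance meets in about 1 in 20 groups. The groups share embryos and are not independent. Has2 was at 16.5 CPM on the left of the wild type 22_4, where the other wild types had 8.37 to 10.3 CPM, and the right of this embryo was also the highest of its group. The log2 ratio of right to left of Cd44 was -0.00697 in the inverted mutant 2_7, where the other 4 had 0.65 to 0.84. With all embryos included and the filter on low counts, no difference of asymmetry between groups passed edgeR's test for a member. DESeq2 called Cd44 for inverted minus rightward mutants. With the same filter, edgeR called Cd44 for that difference without the inverted mutant 2_7 (adjusted p = 0.0292). Cd44 was also called without 1 of the mutants with rightward looping (adjusted p = 0.0352, edgeR).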

How the results depend on the processing

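No member's call reversed. DESeq2 called more genes than edgeR in 8 comparisons. It called 1755 against 468 for asymmetry in inverted mutants, 31 against 6 in rightward mutants and 19 against 0 in wild types, 426 against 82 for inverted minus rightward asymmetry, 84 against 3 and 16 against 2 for inverted against rightward mutants on the left and right, and 20 against 6 and 6 against 3 for rightward mutants against wild types. Of the members it called 3 in inverted mutants (Cd44, Fn1, Tnc), 1 in wild types (Postn) and 1 for inverted minus rightward (Cd44), and no filter on low counts gave the same 3, 1 and 1. No filter called 942, 2 and 131 genes for asymmetry in inverted mutants, in wild types and for their difference from rightward mutants, and 11 on the left and 8 on the right for rightward mutants against wild types. A fit of all 42 libraries called 141 genes and 0 members in inverted mutants and 1 gene in wild types. Without the pairing (no replicate block) the counts were 305 in inverted mutants, 1 in rightward mutants and 17 for inverted minus rightward, and no member's call changed. Without the sex covariate 0 genes were called for inverted against rightward mutants on the right, and with only the groups compared 1 on the left and 0 on the right for rightward mutants against wild types.

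Leaving out each embryo in turn gave 138 (without 32_2) to 446 genes for asymmetry in inverted mutants, 2 (without 1_6) to 8 in rightward mutants, 0 to 0 in wild types and 18 (without the inverted mutant 18_2) to 158 (without the rightward mutant 19_4) for inverted minus rightward. It gave 2 to 6 and 0 to 4 genes for inverted against rightward mutants on the left and right, and 1 to 11 and 0 to 12 for rightward mutants against wild types. Members called ranged from 1 to 2 in inverted mutants and from 0 to 1 for inverted minus rightward, and Cd44 was the member gained. Over all leave-one-out fits, 1083 values of single members kept their sign and their side of the threshold, 84 values that were not called changed sign, and 3 passed the threshold. The cause of these changes was not tested, beyond the fewer embryos when one is left out. With 5 embryos in a group, p-values rest on few pairs, and a member that missed the threshold is not shown to be symmetric.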
